A study of Rattus norvegicus with 39 samples.

Results

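Sham surgery at 0.5 hr was compared with unoperated liver in male Wistar rats of 5 to 6 weeks. The comparison used the 3 arrays labelled as sham-operated at 0.5 hr and the 3 arrays labelled as unoperated, chosen by their sample titles, which are 6 of the 39 arrays of the series. All 23409 coding probe sets of the array were tested. Sham rats were anaesthetised with isoflurane, opened by a midline incision in mid-morning and had the liver handled as for placing and removing a clamp, with no interruption of blood flow. All rats of the study were killed by exsanguination under isoflurane. The other 33 arrays came from sham livers at 0, 2 and 6 hr and from the non-ischemic and reperfused lobes of rats with 30 min of partial ischemia, at the same 4 times. The sham times match those of the ischemic rats, in which they count reperfusion after the 30 min of ischemia. How long before killing the sham operation began is not stated. How the unoperated rats were handled before killing, and at what hour they were killed, is not given in the sources used here. Nor is the lobe taken from the sham rats. The operation, the anaesthesia during it, the handling and the hour of sampling therefore cannot be told apart. The titles number the arrays of a group as biological replicates. The values are normalized intensities on a log2 scale, so a difference of 1 is a 2-fold difference.

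Liver meets the stress of surgery with a metabolic programme. Glucocorticoids from the adrenal gland act through the glucocorticoid receptor, and glucagon and catecholamines act through cAMP and its response element binding protein CREB. Both routes switch on genes for breaking down amino acids and making glucose. Immediate early genes, many of them transcription factors driven by serum response factor or CREB, are the earliest transcripts to change after an injury or a hormone, and cytokine-driven acute phase genes follow later.

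The difference between the groups was larger than the spread within either. The Euclidean distance between 2 arrays in log2 intensity was 41.9 to 44.8 among the unoperated arrays, 36.2 to 52.6 among the 0.5 hr sham arrays and 59.7 to 65.5 between the groups. With limma's moderated test and Benjamini-Hochberg q-values under 0.05, 768 probe sets differed (3.28% of those tested). Of these, 346 (1.48%) were higher and 422 (1.8%) were lower in the sham livers. At an unadjusted p under 0.05 there were 4610 (19.7%). The median size of the 768 differences was 0.74, and 199 exceeded 1. The median difference over all probe sets was 0.02, and the median log2 intensity of the 6 arrays was 5.35 to 5.38.

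Which probe sets passed depended on each single array. Without unoperated replicate 1, 2 or 3 the count was 103, 118 or 199. Without sham 0.5 hr replicate 2 or 3 it was 84 or 53. Without sham 0.5 hr replicate 1 it was 1179. Of the 768, 39 were called without each of the 6 arrays in turn. Among the 106 called probe sets of the genes and lists named here, 16 were, and they are Cyp3a9, Ifit1, Coq10b, Pla2g12a, Sdc4, Ppargc1a, Tat, Asl, Slc7a2, Cebpd, Klf6, Osgin1, Ccdc77, Tk1, Kif20a and Nr1i3.

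**Figure D1:**
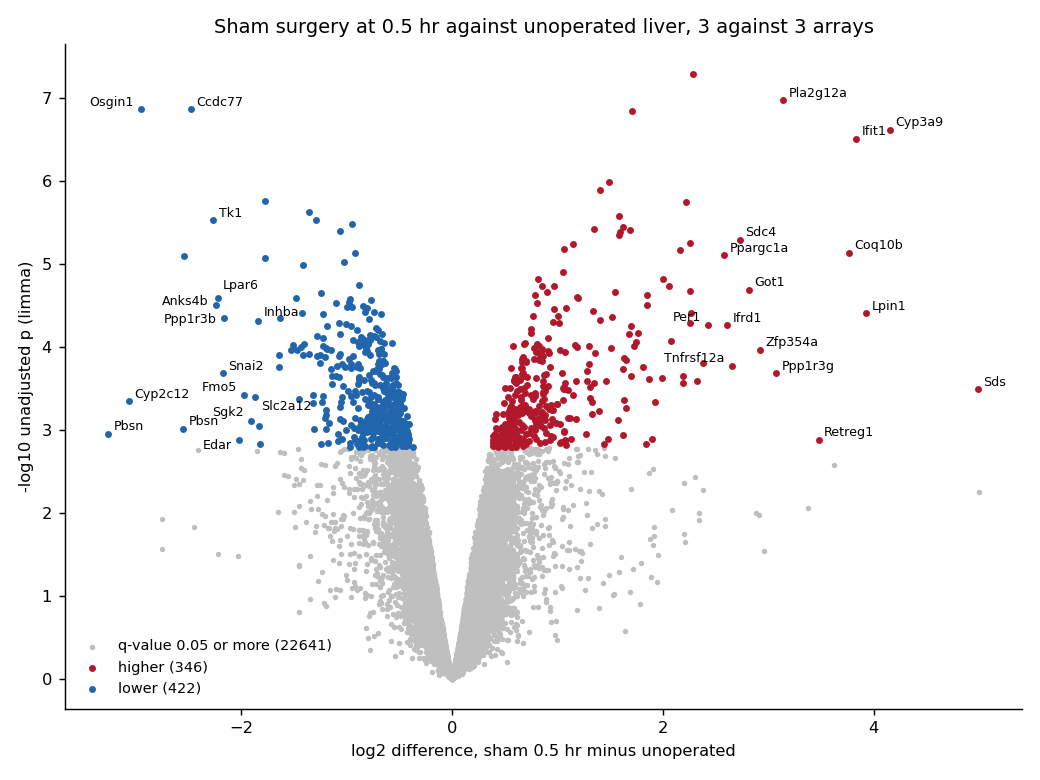
Each point is 1 of 23409 probe sets, with the log2 difference of sham 0.5 hr minus unoperated on the x axis and -log10 of limma's unadjusted p on the y axis (3 against 3 arrays). Red points (346) were higher and blue points (422) lower at a q-value under 0.05, and the named genes are the 15 probe sets with the largest rises and the 15 with the largest falls.

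Enzymes of amino acid breakdown were among the genes that rose. Sds, serine dehydratase, which turns serine into pyruvate, stood at 5.48, 6.26 and 5.32 in the unoperated livers and at 8.79, 11.85 and 11.37 in the sham livers. The groups did not overlap, although the sham arrays spanned about 3 log2 units and replicate 1 was the lowest. The rise was 31.6-fold (log2 4.98, SE 0.76, q-value 0.0259). Got1, the cytosolic aspartate aminotransferase, stood at 11.04, 11.44 and 11.41 against 13.48, 14.59 and 14.26. That is 7.03-fold higher (log2 2.81, SE 0.28, q-value 0.0115). Tat, tyrosine aminotransferase and a classic glucocorticoid-induced enzyme, was already abundant in unoperated liver. Its levels were 16.30, 17.03 and 16.74 against 18.88, 19.08 and 18.90, a 4.80-fold rise (SE of the log2 difference 0.18, q-value 0.00548). The sham arrays lay closer together than the unoperated arrays for Tat.

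The urea cycle, which disposes of the nitrogen freed by these reactions, changed in the same samples. Asl, argininosuccinate lyase, rose 3.22-fold from 12.94, 13.36 and 13.22 to 14.72, 14.94 and 14.91 (SE 0.13 on the log2 scale, q-value 0.00457). Ass1, argininosuccinate synthase, rose 1.60-fold (q-value 0.0182), and Slc25a15, the mitochondrial ornithine carrier, rose 2.14-fold (q-value 0.0363). Gls2, the liver glutaminase, rose 1.57-fold (q-value 0.0318). Nags, which makes the activator of the first urea cycle step, fell 1.82-fold (q-value 0.046). In the whole list for urea cycle and amino acid breakdown, 7 of 21 measured genes rose, 1 fell and the median difference was 0.65, against 1.48% higher, 1.8% lower and a median of 0.02 over all probe sets. Of 17 amino acid and glucose transporters, 4 rose and 0 fell, and 11 of the 17 differences were above 0. Slc7a2, a cationic amino acid transporter, went from 15.51, 15.78 and 15.70 to 17.13, 17.17 and 17.18 (2.82-fold, q-value 0.00301). Slc38a2, a carrier of neutral amino acids, rose 4.83-fold (q-value 0.013), Slc25a25, a mitochondrial ATP-magnesium carrier, 3.24-fold (q-value 0.0145) and Slc2a1, the glucose transporter of most tissues, 1.86-fold (q-value 0.0221).

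Among 23 genes of fasting, gluconeogenesis and the cAMP response, 6 rose and 1 fell (1.48% and 1.8% of all probe sets), with a median of 0.96. The groups did not overlap in the upward direction for 15 of them, against 12.3% of all probe sets. Ppargc1a, a coactivator that CREB induces in fasted liver, stood at 7.40, 8.12 and 7.60 in the unoperated arrays and at 10.62, 10.19 and 10.04 in the sham arrays. It rose 5.97-fold (SE 0.22 on the log2 scale, q-value 0.00617). Ppp1r3g, a glycogen-targeting subunit of protein phosphatase 1, rose 8.41-fold (q-value 0.0219), whereas its relative Ppp1r3b fell 4.47-fold (q-value 0.0135). Klf15, a glucocorticoid-responsive activator of amino acid catabolism, rose 2.22-fold (q-value 0.0277) and Crem, a cAMP-responsive regulator, 1.88-fold (q-value 0.0175). Tat and Got1 made up the rest of the 6. Pck1, the rate-limiting enzyme of gluconeogenesis, was not called. It stood at 17.28, 18.24 and 17.76 against 18.44, 18.50 and 18.55, with groups apart (q-value 0.132). G6pc1, the glucose 6-phosphatase, had overlapping groups, at 15.24, 15.37 and 16.28 against 16.14, 14.76 and 15.26 (q-value 0.795). Both enzymes are shown because they define the pathway, and were chosen after their values were seen.

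Of 24 measured glucocorticoid receptor targets, 10 rose (1.48% of all probe sets) and 0 fell, with a median difference of 1.05, the highest median among the lists. Besides Sds, Tat and Klf15, they included Per1 (5.39-fold, q-value 0.0145) and Klf9 (3.80-fold, q-value 0.03), a transcriptional repressor. Cebpd, a transcription factor of the C/EBP family, stood at 6.62, 6.38 and 6.73 against 8.03, 8.16 and 8.32 (3.02-fold, q-value 0.00457), and its relative Cebpb rose 1.77-fold (q-value 0.0174). Nfkbia, the inhibitor of NF-kB, rose 2.55-fold (q-value 0.024), Tsc22d3, also known as GILZ, 1.80-fold (q-value 0.0368) and Errfi1, an inhibitor of the EGF receptor, 1.48-fold (q-value 0.0398). Fkbp5, another usual target, was at 7.32, 7.38 and 7.14 against 7.11, 7.39 and 7.23 (q-value 0.912). It was named after its values were seen, because the level at 2 hr was higher (0.5 hr minus 2 hr -2.00 on the log2 scale, q-value 0.0297). Leaving out 1 array left as few as 2 of the 10 glucocorticoid target calls (without unoperated replicate 1, or without sham 0.5 hr replicate 2 or 3) and as many as 11 without sham 0.5 hr replicate 1.

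**Figure D2:**
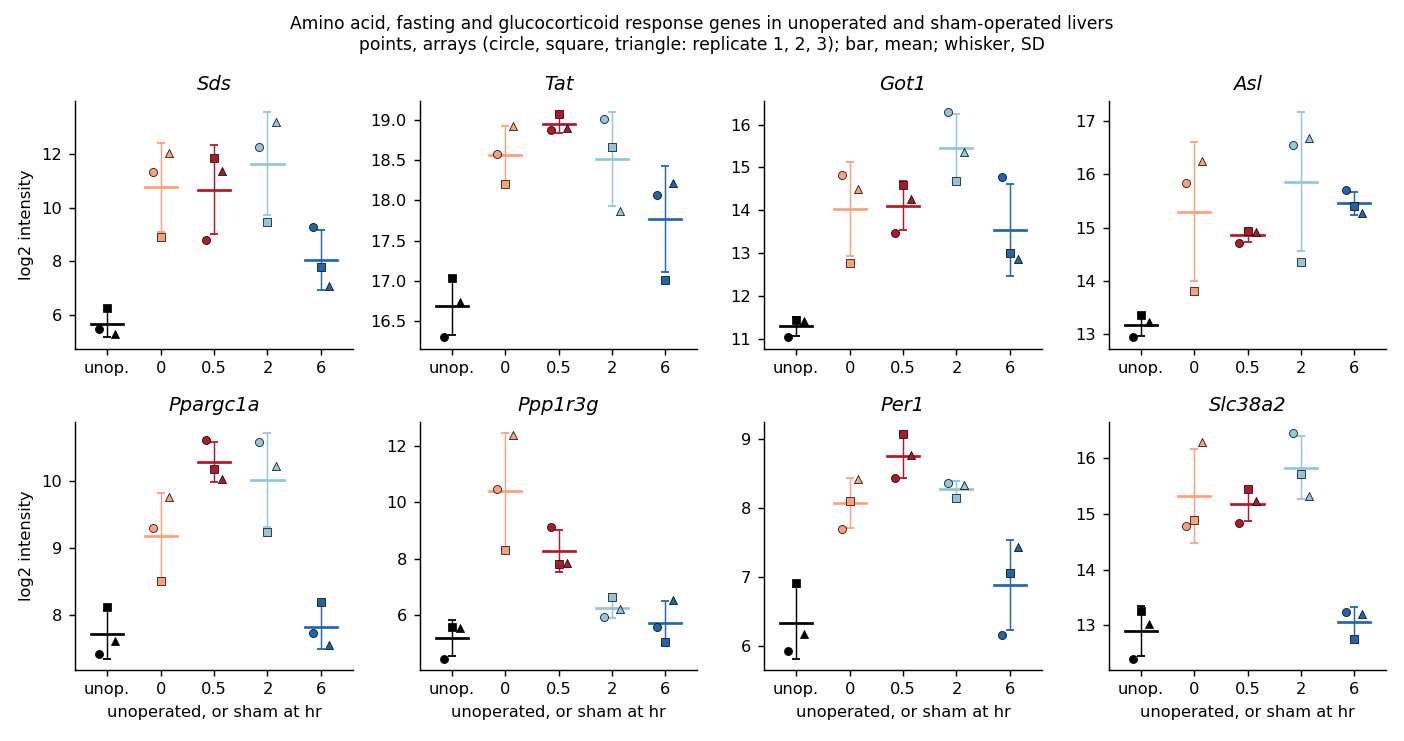
Log2 intensity of 8 genes in each array of the unoperated and the 4 sham groups (0, 0.5, 2 and 6 hr), with the mean as a bar and the SD as a whisker. For all 8 genes the 0.5 hr sham arrays lie above the unoperated arrays, and Sds runs from 8.79 to 11.85 in the former against 5.32 to 6.26 in the latter.

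The promoters of the genes that rose were read for 2 short motifs tied to the cAMP and glucocorticoid routes. The windows hold 250 bases before and 50 after the annotated start (RefSeq, build GRCr8), and both strands were searched. TGACG, the core of the cAMP response element, was in 4 of the 6 windows of the fasting genes that rose (66.7%) and in 4 of 8 windows found for the 10 glucocorticoid targets that rose (50%). It was in 6030 of all 27457 windows (22%). For the urea cycle and amino acid genes that rose it was in 1 of 6 windows (16.7%). For the 15 largest rises it was in 6 of 13 windows (46.2%). AGAACA, the core of a glucocorticoid receptor site, was in 1 of the 6 fasting and 0 of the 8 glucocorticoid target windows, against 20.1% of all windows. It was in 0 of 6 urea cycle and amino acid windows and in 3 of 13 windows of the largest rises (23.1%). The latter include the window of Cyp3a9, a gene whose probe sets disagreed in direction. Klf15 and Tat are in both the fasting and the glucocorticoid list and are counted in both. The other sets share genes with these as well. A match to so short a motif is a description and not a binding site. The fasting list was drawn up to hold genes of the cAMP response. Members of the lists that did not rise were not counted separately, so whether a motif goes with the rise was not tested. The windows of Ppargc1a and Klf15 are shown because both regulators rose and hold more than 1 TGACG core. Capitals mark TGACG or its reverse complement, and in Ppargc1a a pair of them overlap to form the palindromic full element. Ppargc1a lies on the plus strand at chr14:63634058-63634357 and Klf15 on the plus strand at chr4:124522765-124523064.
Ppargc1a: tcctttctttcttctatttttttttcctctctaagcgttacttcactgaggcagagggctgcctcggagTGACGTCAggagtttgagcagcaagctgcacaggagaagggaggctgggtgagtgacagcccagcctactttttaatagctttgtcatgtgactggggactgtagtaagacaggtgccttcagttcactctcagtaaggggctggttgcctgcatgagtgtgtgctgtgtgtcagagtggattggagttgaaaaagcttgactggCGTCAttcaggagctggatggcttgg
Klf15: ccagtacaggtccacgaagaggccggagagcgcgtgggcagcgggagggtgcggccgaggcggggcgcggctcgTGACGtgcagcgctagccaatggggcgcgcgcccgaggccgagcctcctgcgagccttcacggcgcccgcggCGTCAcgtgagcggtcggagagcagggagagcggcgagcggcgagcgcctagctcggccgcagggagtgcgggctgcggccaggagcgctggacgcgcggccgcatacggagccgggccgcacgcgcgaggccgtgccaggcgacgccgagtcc

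The largest other rises came from several functions. Lpin1, a phosphatidate phosphatase and coregulator of fatty acid oxidation, went from 10.22, 11.26 and 11.01 to 13.84, 15.19 and 15.24 (15.2-fold, q-value 0.013). Coq10b, a coenzyme Q binding protein, went from 7.89, 8.26 and 7.99 to 12.42, 11.93 and 11.08 (13.6-fold, q-value 0.00608). Pla2g12a, a secreted phospholipase A2, went from 6.94, 6.62 and 6.55 to 9.65, 10.03 and 9.84 (8.81-fold, q-value 0.000682). None of these groups overlapped, and Pla2g12a had the tightest arrays of the 3. Retreg1, an endoplasmic reticulum autophagy receptor, rose 11.1-fold with a wide unoperated group (7.71, 9.84 and 10.34, q-value 0.0456), and it lost its call without any 1 of the 6 arrays. Sdc4, a cell surface proteoglycan, rose 6.62-fold (q-value 0.00524), Tnfrsf12a, the TWEAK receptor, 6.30-fold (q-value 0.0201), Ifrd1 6.10-fold (q-value 0.0145) and the zinc finger gene Zfp354a 7.59-fold (q-value 0.0174). For 7 of the 15 probe sets with the largest rises, all 9 arrays of the 0, 2 and 6 hr shams also lay above the highest unoperated array. Since those values share the unoperated arrays, they are given as levels only.

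No fold is given for genes with a group mean under a log2 intensity of 5, counted as dim here, since how much of such a value is background was not tested. The rise of Ifit1, an interferon-stimulated gene, did not extend to its list. Ifit1 stood at 3.64, 3.75 and 3.91 in the unoperated livers, among the dimmest values of the array, and at 7.24, 8.04 and 7.52 in the 0.5 hr sham livers (log2 difference 3.83, q-value 0.00104). Where 3.28% of all probe sets were called, it was the 1 called gene of 27 interferon-stimulated genes, and the median was 0.07. Its level also jumped between replicates of other groups. In the 0 hr shams it was 8.07, 3.44 and 3.96, and in the 2 hr shams 7.60, 3.80 and 3.90. Pbsn, probasin, an X-linked lipocalin gene, behaved likewise among the falls. Its brighter probe set stood at 8.19, 7.95 and 8.57 in unoperated liver and at 6.54, 4.15 and 4.25 in the 0.5 hr shams (log2 difference -3.26, q-value 0.043), and the other probe set fell by 2.55 on the log2 scale (q-value 0.0402). In the 2 hr shams the brighter one was 8.44, 8.35 and 4.47. Both genes thus held a high and a low level among rats of a single group, and the reason was not tested.

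The 2 probe sets of Cyp3a9, a cytochrome P450 of the 3A family, disagreed. The dimmer went from 6.88, 6.75 and 6.34 to 10.99, 11.04 and 10.40 (17.8-fold higher, q-value 0.000945). The brighter went from 12.47, 12.05 and 12.23 to 11.02, 10.67 and 10.62 (2.79-fold lower, q-value 0.0118). No direction can be given for the gene as a whole, and the list of xenobiotic genes counts the brighter probe set.

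Immediate early genes rose in part. Of 50 measured, 7 were higher and 1 was lower (1.48% and 1.8% of all probe sets), with a median difference of 0.53 and 43 of 50 differences above 0. The groups did not overlap for 24 genes in the upward direction, where 12.3% of all probe sets had groups apart in that direction. Klf6, a zinc finger factor, went from 5.95, 6.17 and 6.06 to 7.85, 7.44 and 7.63 (2.99-fold, q-value 0.0048). Dusp5, a phosphatase of ERK, rose 2.53-fold (q-value 0.013), Plk3, a stress kinase, 2.46-fold (q-value 0.0174) and Srf, serum response factor itself, 2.08-fold (q-value 0.0256). The AP-1 subunits Fosl2 and Jund rose 2.08-fold (q-value 0.042) and 1.77-fold (q-value 0.0189), and Atf3, a stress-induced repressor, 1.75-fold (q-value 0.0385). Plk2 fell 1.94-fold (q-value 0.0391).

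The best known members were not called, and sham 0.5 hr replicate 1 stood apart for several of them. Nr4a1, an orphan nuclear receptor, was 5.86, 5.90 and 5.86 in unoperated liver and 9.93, 6.38 and 6.97 in the shams (q-value 0.276). Rhob, a small GTPase, was 8.21, 8.65 and 8.38 against 12.34, 10.08 and 9.98 (q-value 0.0864). Jun was 8.53, 8.88 and 9.60 against 12.13, 8.20 and 8.24 (q-value 0.834). Replicate 1 was thus the highest of the sham arrays for all 3, and for Jun the other replicates lay under the lowest unoperated array. Egr1 was also highest in replicate 1, at 8.19, 9.73 and 10.02 against 12.58, 9.03 and 9.32 (q-value 0.638). Fos was dim in every array, at 4.42, 4.74 and 4.73 against 5.14, 4.27 and 4.95 (q-value 0.769). Jun, Egr1 and Fos were named after their values were seen, as the usual markers of this class. Without unoperated replicate 2, 1 gene of the list was called, and without sham 0.5 hr replicate 1, 12 were.

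CArG boxes, the sites of serum response factor, were found in the promoter windows of 3 of the 6 immediate early genes that rose and had a window, against 1.6% of all windows. These 3 were Srf, Dusp5 and Klf6. TGACG was in 4 of these 6 windows (22% of all), and TGACTCA, the AP-1 site, in 0 (4.5% of all). Members of the list that did not rise were not counted separately, so whether these motifs go with the rise was not tested. The windows of Srf and Dusp5 are shown because each holds 2 CArG boxes, marked by capitals, and because Srf encodes the factor itself. Srf lies on the plus strand at chr9:21923826-21924125 and Dusp5 on the plus strand at chr1:262543524-262543823.
Srf: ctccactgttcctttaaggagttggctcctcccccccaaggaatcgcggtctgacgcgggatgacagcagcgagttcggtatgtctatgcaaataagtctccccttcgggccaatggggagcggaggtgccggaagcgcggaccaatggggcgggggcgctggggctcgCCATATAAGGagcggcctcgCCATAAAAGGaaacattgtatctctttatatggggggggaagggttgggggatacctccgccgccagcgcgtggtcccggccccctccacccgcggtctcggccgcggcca
Dusp5: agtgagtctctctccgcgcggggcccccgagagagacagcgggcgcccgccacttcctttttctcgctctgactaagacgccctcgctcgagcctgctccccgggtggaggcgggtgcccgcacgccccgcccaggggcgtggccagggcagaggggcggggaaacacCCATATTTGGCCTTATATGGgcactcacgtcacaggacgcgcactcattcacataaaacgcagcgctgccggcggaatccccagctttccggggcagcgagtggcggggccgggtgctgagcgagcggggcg

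**Figure D3:**
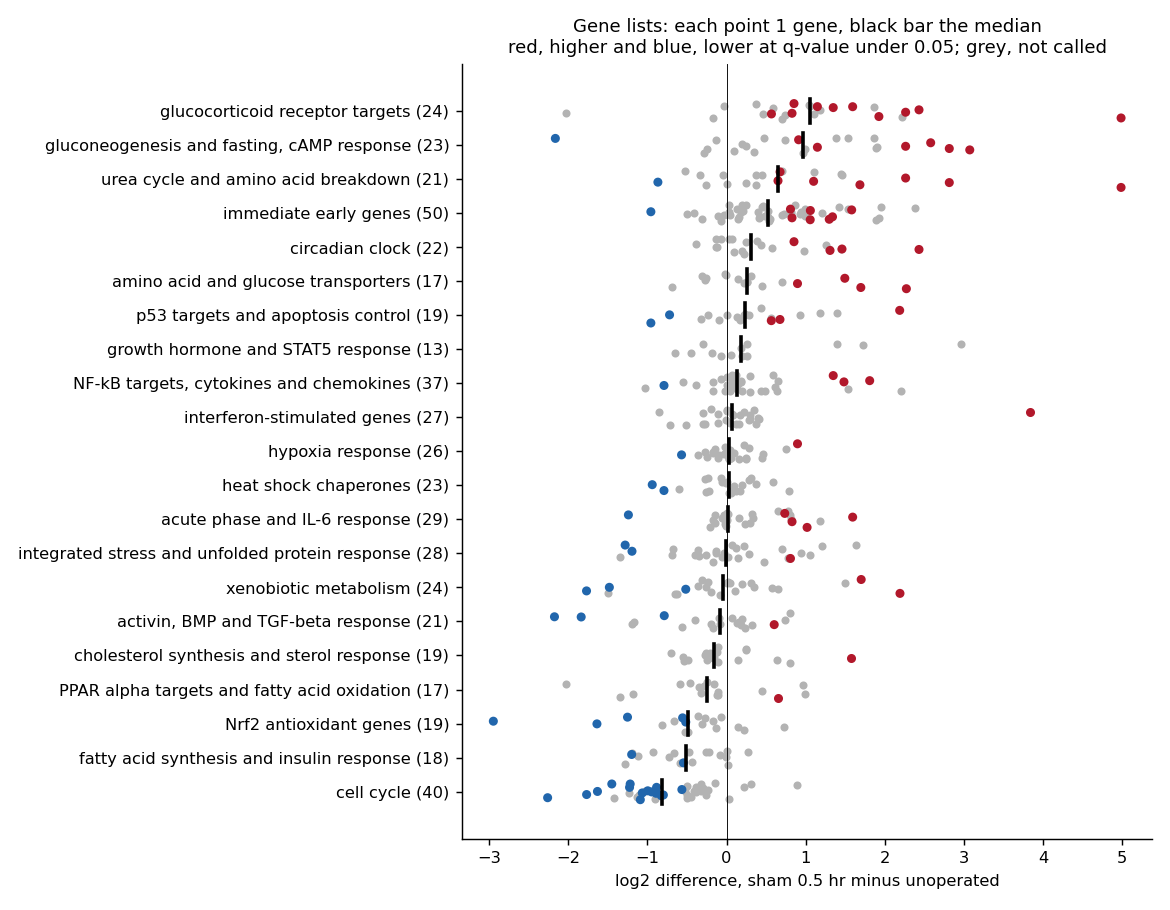
Log2 difference of sham 0.5 hr minus unoperated for every measured member of the 20 function lists and of the cell cycle list, 1 point a gene, with list sizes in brackets and the median as a black bar. Red genes were higher and blue genes lower at a q-value under 0.05, and the medians run from 1.05 for glucocorticoid receptor targets to -0.81 for cell cycle genes.

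Genes of cell division were higher in unoperated liver. This list of 40 genes was drawn up after its values were seen, so its counts are a description. Of the 40, 16 fell (1.8% of all probe sets), 0 rose and the median difference was -0.81. Mki67, the proliferation antigen Ki-67, was 11.06, 10.55 and 10.44 in the unoperated livers and 9.27, 8.90 and 9.0 in the 0.5 hr shams (3.10-fold lower, q-value 0.0135). Tk1, thymidine kinase, was 11.21, 11.24 and 11.44 against 9.41, 8.89 and 8.82 (4.79-fold lower, q-value 0.00457). Kif20a, a kinesin of cytokinesis, fell 3.40-fold (q-value 0.00622), Top2a, topoisomerase II alpha, 2.73-fold (q-value 0.0289) and Ccna2, cyclin A2, 2.32-fold (q-value 0.0172). The genes that fell span DNA synthesis (Tyms), chromosome condensation (Ncapg, Ncapd2, Smc4), kinetochores (Cenpe, Cenpf, Knl1, Bub1) and the mitotic spindle (Prc1, Aurkb). For 15 of the 16, all 33 arrays outside this comparison lay below the lowest unoperated array. The genes were called against these same unoperated arrays, so the values are given as levels only. Mki67 was at most 9.32 in the other shams and at most 9.44 in the lobes of ischemic rats, including those sampled at 0 hr. The exception was Ncapd2, with 30 of 33. Without sham 0.5 hr replicate 3, 2 of the genes were called.

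**Figure D4:**
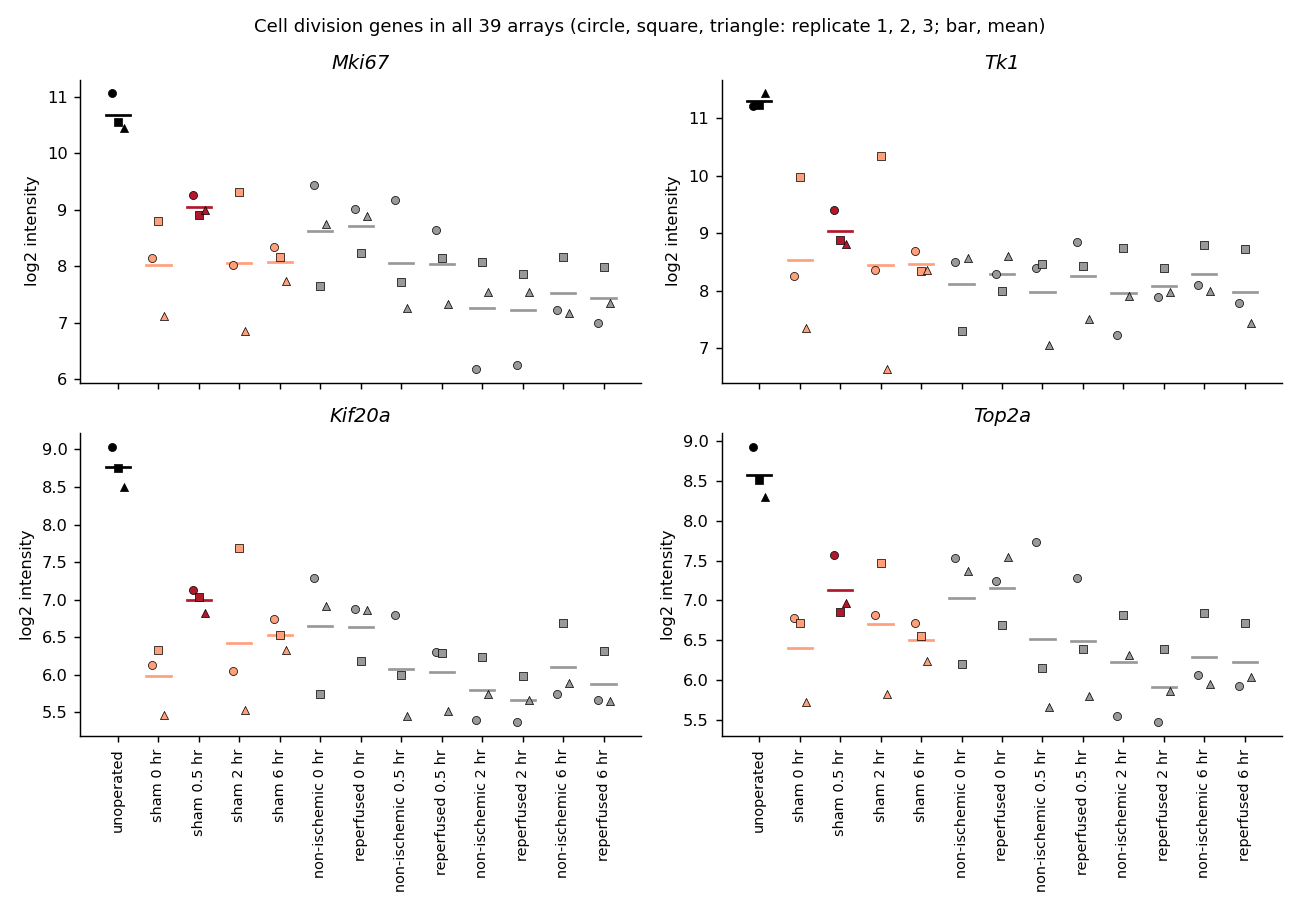
Log2 intensity of Mki67, Tk1, Kif20a and Top2a in each of the 39 arrays, by group, with the group mean as a bar. The unoperated arrays (black) lie above all others for each gene, with Tk1 at 11.21 to 11.44 against at most 10.34 elsewhere.

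Of 19 measured antioxidant genes under Nrf2, 5 fell (1.8% of all probe sets) and 0 rose, with a median of -0.49. The groups did not overlap in the downward direction for 13 of the 19 (12.7% of all probe sets) and in the upward direction for 3 (12.3%). Osgin1, an oxidative stress induced growth inhibitor, was 10.62, 10.53 and 10.70 in unoperated liver and 7.39, 7.88 and 7.74 in the 0.5 hr shams (7.70-fold lower, q-value 0.000682). All 33 other arrays also lay below its unoperated range, given as levels only since the unoperated arrays are shared. Nfe2l2, which encodes Nrf2, was 9.59, 9.39 and 10.04 against 8.38, 8.50 and 8.39 (2.38-fold lower, q-value 0.018). Gsta3, a glutathione S-transferase, fell 3.11-fold (q-value 0.018), Txnrd1, thioredoxin reductase, 1.47-fold (q-value 0.0443) and Ephx1, the microsomal epoxide hydrolase, 1.43-fold (q-value 0.0465). Hmox1 and Nqo1, the usual reporters of Nrf2, were not called, at q-values of 0.16 and 0.231, and were named after their values were seen. Without unoperated replicate 1, or without sham 0.5 hr replicate 2 or 3, 1 gene of the list was called.

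Genes of drug metabolism moved in both directions. Of 24, 2 were higher and 3 lower (1.48% and 1.8% of all probe sets). Ephx1 and the brighter Cyp3a9 probe set were among the lower. Leaving out 1 array gave 1 to 8 calls in this list. Por, the reductase that supplies electrons to cytochromes P450, was 11.56, 12.15 and 11.75 against 13.29, 14.40 and 14.34 (4.57-fold higher, q-value 0.0223). Alas1, the rate-limiting enzyme of heme synthesis in liver, rose 3.25-fold (q-value 0.0223). Nr1i3, the constitutive androstane receptor CAR, was 9.62, 9.27 and 9.67 against 7.78, 7.74 and 7.74 (3.41-fold lower, q-value 0.00382). The sham arrays of this gene nearly coincided. Outside this list, Cyp2c12, a member of the cytochrome P450 2C family, was 15.27, 16.30 and 16.78 against 13.98, 12.63 and 12.56 (8.36-fold lower, q-value 0.0299). Close relatives in this family may share its probes. The level of Cyp2c12 also varied within other groups, at 17.81, 16.05 and 11.90 in the non-ischemic lobes at 0 hr. Its call was kept in 1 of the 6 fits that left out 1 array. Fmo5, a flavin monooxygenase, was 11.94, 11.43 and 12.03 against 10.52, 9.5 and 9.46 (3.92-fold lower, q-value 0.0277). All 33 other arrays lay above the unoperated range of Fmo5, so the 0.5 hr sham group held the lowest Fmo5 levels of the series.

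The remaining large falls were spread over signalling genes. Inhba, the activin A subunit, was 9.05, 8.22 and 8.54 against 6.93, 6.64 and 6.73 (3.57-fold lower, q-value 0.0142). Snai2, a transcriptional repressor of the Snail family, was 11.43, 10.97 and 11.90 against 8.68, 9.51 and 9.59 (4.51-fold lower, q-value 0.0219). With Id4 they made up the 3 lower genes among 21 of the activin, BMP and TGF-beta list, in which Skil rose. Over all probe sets, 1.48% were higher and 1.8% lower. The median of that list was -0.08, and 10 of its 21 differences were above 0. Without sham 0.5 hr replicate 2 or 3, 0 genes of the list were called. Ccdc77, a coiled-coil gene, fell 5.55-fold (q-value 0.000682), Anks4b, an ankyrin repeat gene, 4.72-fold (q-value 0.0125), Lpar6, a lysophosphatidic acid receptor, 4.66-fold (q-value 0.0118) and Sgk2, a serum and glucocorticoid regulated kinase, 3.74-fold (q-value 0.0372). Edar, the ectodysplasin receptor, fell 4.05-fold (q-value 0.0456) and Slc2a12, a glucose transporter, 3.64-fold (q-value 0.0284). For 7 of the 15 probe sets with the largest falls, all 9 arrays of the other sham times were also below the lowest unoperated array. These too are levels only, since the unoperated arrays are shared.

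Of 18 genes for fatty acid synthesis and the insulin response, 2 fell and 0 rose (1.8% and 1.48% of all probe sets), with a median of -0.51. The groups did not overlap in the downward direction for 10 of the 18 (12.7% of all probe sets) and in the upward direction for 0. Mlxipl, which encodes the carbohydrate response factor ChREBP, was 12.88, 12.64 and 12.83 against 11.12, 11.68 and 11.95 (2.29-fold lower, q-value 0.0363), and Fads2, a fatty acid desaturase, fell 1.46-fold (q-value 0.0454). Fasn, fatty acid synthase, was 12.01, 12.09 and 13.37 against 11.15, 11.36 and 11.60 (q-value 0.147). Among 19 cholesterol genes, Insig1, a sterol-sensing inhibitor of SREBP processing, was the 1 called, at 12.78, 13.90 and 13.68 against 15.09, 15.12 and 14.87 (2.98-fold higher, q-value 0.0367). Among 17 PPAR alpha targets, Cidec, a lipid droplet protein, rose 1.57-fold (q-value 0.0256) and 0 fell. Angptl4, a lipoprotein lipase inhibitor, was 11.78, 12.14 and 13.17 against 8.53, 11.50 and 10.98 (q-value 0.209), with sham 0.5 hr replicate 1 far below its groupmates.

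Inflammatory lists had calls in both directions, where 1.48% of all probe sets were higher and 1.8% lower. Of 29 acute phase genes, 4 rose (Cebpd, Cebpb, Il1r1 and Osmr) and Pim1 fell, and the median was 0.02, as over all probe sets. Il1r1, the interleukin 1 receptor, was 12.18, 12.09 and 12.49 against 13.31, 13.24 and 13.26 (2.02-fold, q-value 0.0145). Of 37 NF-kB targets, cytokines and chemokines, 3 rose and 1 fell. Nfkbiz, an inducible nuclear IkB protein, was 6.05, 5.77 and 6.17 against 8.39, 7.49 and 7.53 (3.50-fold, q-value 0.0201). Cxcl1, a neutrophil chemokine, was 6.50, 6.48 and 6.66 against 8.74, 7.56 and 7.80 (2.80-fold, q-value 0.0454), and Irf1, an interferon regulatory factor, fell 1.73-fold (q-value 0.0268). Il6 stayed at 3.45 to 3.98 and Tnf at 3.52 to 3.82 in all 6 arrays, near the dimmest values, and both are named after their values were seen. Il1rn, the interleukin 1 receptor antagonist, was 7.72, 7.70 and 7.48 against 11.21, 9.31 and 9.0 (q-value 0.0792), again with sham 0.5 hr replicate 1 the highest.

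Stress lists likewise had calls in both directions, against the same 1.48% and 1.8% of all probe sets. Of 26 hypoxia genes, Slc2a1 rose and Eno1, an enolase of glycolysis, fell 1.48-fold (q-value 0.0284). Of 23 heat shock chaperones, Chordc1 (1.92-fold, q-value 0.0301) and Bag3 (1.73-fold, q-value 0.0361), a cochaperone of Hsp70, fell. In the integrated stress and unfolded protein list of 28, Atf3 rose and the serine and asparagine synthesis genes Psat1 (2.43-fold, q-value 0.018) and Asns (2.29-fold, q-value 0.0348) fell. Of 19 p53 targets and apoptosis genes, Tp53inp1 (4.55-fold, q-value 0.024), Ccng1 and Bcl2l1 rose while Fas and Plk2 fell. The medians of the hypoxia, heat shock and unfolded protein lists were 0.034, 0.0314 and -0.0041. Of 13 growth hormone and STAT5 genes, limma called 0, and 6 had an unadjusted p under 0.05. Cish, a feedback inhibitor of STAT5, was 10.67, 11.11 and 6.69 against 12.42, 12.68 and 12.23 (q-value 0.194).

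Clock genes showed both a difference between groups and a split within them. Of 22 measured, Per1, Bhlhe40, Noct and Tsc22d3 rose and 0 fell, against 1.48% and 1.8% of all probe sets. Per1 and Tsc22d3 are also counted among the glucocorticoid receptor targets. Without unoperated replicate 1, or without sham 0.5 hr replicate 2 or 3, 0 genes of the list were called. Per1, a period gene that glucocorticoids and cAMP induce acutely, was 5.92, 6.92 and 6.16 against 8.44, 9.08 and 8.77. Bhlhe40, a light- and hormone-induced repressor, was 11.56, 11.55 and 12.31 against 13.11, 13.41 and 13.28 (2.75-fold, q-value 0.0233). Noct, the circadian gene nocturnin, rose by 1.31 on the log2 scale (q-value 0.0289) from a dim mean. Rhythmic genes without a call divided the rats of each group instead, and these were picked after their values were seen. Dbp was 5.77, 5.65 and 7.87 in the unoperated livers and 5.62, 8.42 and 8.19 in the 0.5 hr shams. Nr1d1, the repressor REV-ERB alpha, was 9.25, 9.64 and 11.74 against 7.96, 11.12 and 11.19, while Bmal1, its target, was 10.09, 9.93 and 9.40 against 10.11, 9.09 and 9.05. Unoperated replicates 1 and 2 and sham 0.5 hr replicate 1 were thus low in Dbp and Nr1d1 and high in Bmal1. Dbp and Nr1d1 rise and Bmal1 falls through the day in rodent liver. Their part in the other results, in the calls that depended on sham 0.5 hr replicate 1 in particular, was not tested. Since the hour at which the unoperated rats were killed is not given, time of day and operation cannot be told apart.

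Markers of cell types were read within the limit that bulk liver cannot tell fewer cells of a type from less RNA per cell. Over all probe sets, limma called 1.48% higher and 1.8% lower, and 19.7% had an unadjusted p under 0.05. Groups were apart upward for 12.3% and downward for 12.7%. Of 9 hepatocyte markers limma called 0, with 0 at an unadjusted p under 0.05, and their summed intensity was 4501000 to 4614000 in the shams against 4680000 to 4774000 in unoperated liver. Alb and Ahsg shared 1 value in each array at the top of the scale, so their levels were bounded by it. Of 8 periportal markers 3 rose and 1 fell, 6 had an unadjusted p under 0.05, and the sum was 807800 to 875800 against 486400 to 653200. The 3 were Sds, Gls2 and Ass1, which are also in the amino acid list. Bright members such as Ass1 and Pck1 weigh most in this sum of linear intensities, and Pck1 was not called. Of 8 pericentral markers, Rgn, regucalcin, fell 1.70-fold (q-value 0.0313), and 4 had an unadjusted p under 0.05. Of 10 Kupffer cell markers, Vsig4, a complement receptor of resident macrophages, rose 1.53-fold (q-value 0.0458), with sums of 40460 to 44420 against 30680 to 46030. The median over these 10 was 0.27, 8 differences were above 0, 5 had groups apart upward and 1 downward, and 6 had an unadjusted p under 0.05. Markers of neutrophils, lymphocytes, endothelium, stellate cells, cholangiocytes, mesothelium, blood and pancreas or gut had 0 calls by limma, with 0 to 3 members per list at an unadjusted p under 0.05. Of 10 neutrophil markers, 8 had means under a log2 of 5, and their sum was 269.3 to 276.4 against 249.2 to 287.6. The stellate cell sum was lower in the shams (15570 to 20030 against 21020 to 38590), with Lrat, a retinol-storing enzyme, at 14.06, 13.86 and 14.85 against 13.74, 13.14 and 13.28 (q-value 0.145). The median over the 10 stellate cell markers was above 0, at 0.24, as were 7 of the differences. The part of these sums in the gene results was not tested.

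Against the 0 hr shams, which were also anaesthetised and opened, 2 probe sets were called (0.00854%), both higher at 0.5 hr, while 3240 had an unadjusted p under 0.05 (13.8%). The named gene was Rhou, a Cdc42-related GTPase. It was 9.44, 9.65 and 9.51 at 0 hr and 11.01, 11.13 and 11.09 at 0.5 hr (2.91-fold, SE 0.09 on the log2 scale, q-value 0.0252). The 0 hr group was wide, with arrays 47.2 to 66.9 apart, and its replicate 2 lay closer to the 0.5 hr mean (45.9) than replicates 1 and 3 did (65.5 and 68.6). Without 0 hr replicate 2 the count was 606. Sds was at 11.34, 8.90 and 12.03 at 0 hr, in the range of the 0.5 hr arrays or above it.

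Lipid genes set 0 hr replicate 2 apart from its groupmates. Fasn was 6.70, 10.81 and 6.22 at 0 hr and 7.96, 11.07 and 7.68 at 2 hr. Its 0.5 hr arrays read 11.15, 11.36 and 11.60. Scd, stearoyl-CoA desaturase, was 12.44, 15.91 and 8.74 at 0 hr and 13.53, 15.32 and 7.01 at 2 hr, and the 0.5 hr arrays read 15.89, 15.58 and 15.65. All 3 of the 0.5 hr arrays, and replicate 2 of the other groups, thus stood above replicates 1 and 3 of the 0 and 2 hr groups for both genes. The fatty acid synthesis list had a median of 1.59 against the 0 hr shams with 0 of 18 called by limma and 9 at an unadjusted p under 0.05. Without 0 hr replicate 2, 13 were called. The cholesterol list had a median of 1.58 with 0 of 19 called and 18 at an unadjusted p under 0.05, and 15 were called without that array. For the PPAR alpha targets the median was -1.42, with 0 of 17 called and 7 at an unadjusted p under 0.05, and 10 were called without it. Food intake per rat is not given in the sources used here.

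Against the 2 hr shams, 275 probe sets were called (1.17%), 123 higher (0.525%) and 152 lower (0.649%) at 0.5 hr, and 5204 had an unadjusted p under 0.05 (22.2%). Of 37 NF-kB targets, cytokines and chemokines, 1 was higher and 2 were lower at 0.5 hr, with a median of 0.00495, and of 29 acute phase genes 0 were higher and 3 lower. Cxcl1 was 11.92, 12.91 and 12.29 at 2 hr, or 20.3-fold above 0.5 hr (q-value 0.0175). Il1r1 was 1.53 log2 units higher at 2 hr (q-value 0.0175), Socs3, a feedback inhibitor of cytokine signalling, 1.72 (q-value 0.0297) and Stat3, the transcription factor of the interleukin 6 route, 1.75 (q-value 0.0417). Of 50 immediate early genes, 3 were higher and 1 was lower at 0.5 hr. Klf6 was 1.30 higher at 0.5 hr than at 2 hr (q-value 0.0373), Jund 1.14 (q-value 0.021) and Dusp1, a MAP kinase phosphatase, 2.59 (q-value 0.0429). Junb, another AP-1 subunit, was 1.08 lower (q-value 0.0365).

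Lipid and xenobiotic genes also differed from 2 hr. Insig1 was 12.70, 12.33 and 11.51 at 2 hr, 2.85 log2 units under the 0.5 hr level (q-value 0.0239), and Stard4, a cholesterol carrier, 2.22 under (q-value 0.0136). Cyp4a2, a fatty acid hydroxylase under PPAR alpha, was 18.68, 17.95 and 18.03 at 2 hr and 15.42, 15.23 and 15 at 0.5 hr (8.01-fold lower at 0.5 hr, q-value 0.0136). Cyp2c12 was 17.27, 16.43 and 17.67 at 2 hr (16.8-fold above 0.5 hr, q-value 0.0291) and Fmo5 13.66, 12.14 and 12.92 (8.44-fold above, q-value 0.0418). Slc13a2, a dicarboxylate carrier, was 4.68, 4.79 and 4.58 at 2 hr and 7.61, 7.64 and 7.49 at 0.5 hr (log2 difference 2.90, q-value 0.000512). Hhex, a homeobox factor of liver, Nedd9, a focal adhesion adaptor, and Rnf125, a ubiquitin ligase, were 7.59-, 7.42- and 8.35-fold higher at 0.5 hr (q-values 0.0358, 0.021 and 0.0487). Adh6, an alcohol dehydrogenase, was 13.47, 11.71 and 9.72 at 2 hr and 5.65, 4.59 and 4.27 at 0.5 hr (q-value 0.0361), and it also varied widely in the other groups (4.94, 5.61 and 7.59 in unoperated liver).

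The 2 hr count rested on single arrays. Without 2 hr replicate 2 it was 1972, without 2 hr replicate 1 or 3 it was 17 or 12, and without sham 0.5 hr replicate 1, 2 or 3 it was 67, 1 or 1. Arrays of the 2 hr group were 44.6 to 64.0 apart, and replicate 2 was the closest to the 0.5 hr mean (52.1, against 72.9 and 77.7). With quantile normalization 450 probe sets were called, of which 262 were higher and 188 lower at 0.5 hr, so the balance of directions was not settled.

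**Figure D5:**
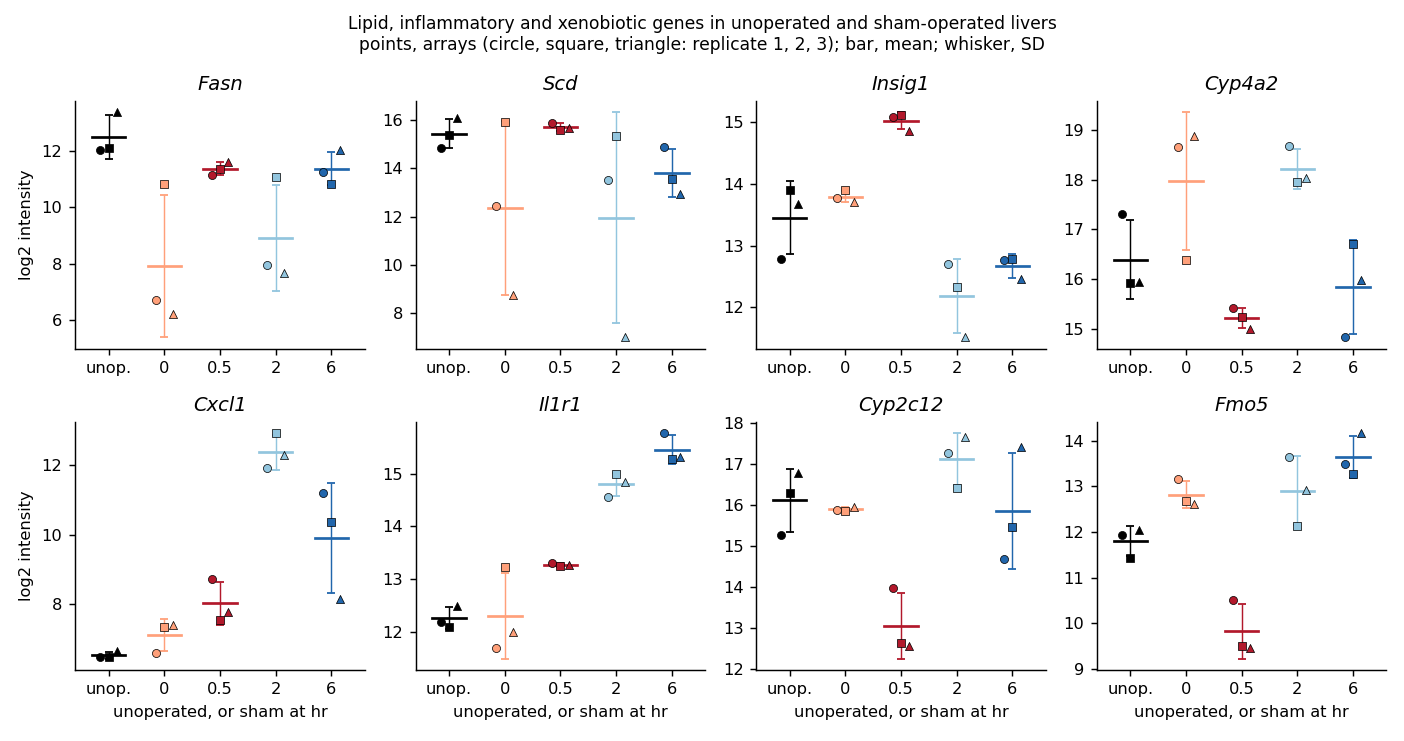
Log2 intensity of 8 genes in each array of the unoperated and the 4 sham groups, with the mean as a bar and the SD as a whisker. Fasn and Scd at 0 and 2 hr are high in replicate 2 (square), Cxcl1 is highest at 2 hr, and Cyp2c12 and Fmo5 are lowest at 0.5 hr, with Fmo5 between 9.46 and 10.52.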

How the data were processed

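Liver RNA was hybridised to Affymetrix Rat Transcriptome 1.0 arrays. The authors normalized the arrays by SST-RMA in Affymetrix Expression Console 1.0 and deposited the result as linear intensity values, from 4.59 to 999961.4, for 23409 probe sets on 39 arrays. Scanner files, slides and scan dates were not used here. The deposited intensities were taken to log2. The 3 sham arrays at 0.5 hr and the 3 unoperated arrays were compared with limma 3.58.1 in R 4.3.3 (lmFit and eBayes, no filter, unpaired), with Benjamini-Hochberg q-values over all probe sets and a threshold of 0.05. The same fit compared 0.5 hr with 0 and 2 hr shams. The script was tested on simulated data. Array depth does not apply: the number of arrays limits the precision.

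Gene symbols came from the platform annotation and RefSeq. Of the probe sets, 19778 had 1 symbol, 419 several and 3212 none, and only the first were named. A list used the brightest probe set of each gene. Named were the 15 largest rises and falls with groups apart, called list members and up to 4 large differences per list, 3 bright markers per cell type, and 5 rises and 5 falls against each other sham time. Members and lists were chosen with earlier results of these data known, and the cell cycle list after its own values were seen. Alternatives were filters on the interquartile range or on dim signals (mean log2 under 5), quantile normalization, limma with trend and robust fitting, a fit over 15 arrays, the replicate block and leaving out each array. Figures were drawn with matplotlib 3.10.9.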

Additional observations from a re-analysis of the deposited data

Results flagged for a closer look

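Some genes that differed from unoperated liver also differed between the 0.5 hr and the 2 hr shams. The test was limma's test of the difference, at a q-value under 0.05. By it, the change from unoperated liver was not the same at both times. These calls rested on single arrays. Of the 275 calls against 2 hr, 1 was kept without sham 0.5 hr replicate 2, and 1 without replicate 3. Higher at 0.5 hr than at 2 hr were Insig1 (log2 2.85), Klf6 (1.30), Jund (1.14) and Slc2a1 (0.77), all of them also higher at 0.5 hr than in unoperated liver. Lower at 0.5 hr than at 2 hr, and lower than in unoperated liver, were Cyp2c12 (log2 -4.07), Fmo5 (-3.08), Nr1i3 (-2.02), Slc2a12 (-1.74), Ccdc77 (-1.73), Bag3 (-1.55), Nags (-1.29) and Chordc1 (-1.15). Cxcl1 (log2 -4.35), Il1r1 (-1.53) and Cidec (-1.42) were lower at 0.5 hr than at 2 hr although they were higher than in unoperated liver. The same arrays at 0.5 hr enter both comparisons of each gene. Groups of 3 arrays are too small for a test of single outlying arrays.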

How the results depend on the processing

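For sham 0.5 hr against unoperated liver, 5 alternatives kept the count of 768 within 1.5 times: 872 with the interquartile range filter, 1003 with the filter on dim probe sets, 844 with quantile normalization, 582 with the trend and robust fit and 930 in the fit over 15 arrays. Quantile normalization turned the balance to 432 higher and 412 lower. Leaving out 1 array gave 53 to 1179. Against the 0 hr shams the count of 2 became 10 with the interquartile range filter, 4 with the dim filter, 4 with the trend and robust fit and 170 in the fit over 15 arrays, and 0 to 606 without 1 array. Against the 2 hr shams the count of 275 became 668 with the interquartile range filter, 745 with the dim filter, 450 with quantile normalization, 160 with the trend and robust fit and 2087 in the fit over 15 arrays, and 1 to 1972 without 1 array. With the replicate block the counts were 309, 0 and 11. Replicate numbers did not pair the samples: deviations of same-numbered arrays correlated at 0.02, -0.01 and 0.05 in the main comparison, and 3 of 6 arrays correlated best with their own number. Of 102 named genes, 0 reversed under quantile normalization. The other alternatives could not reverse a direction. The filters and other fits kept the difference of group means, and called genes had groups apart, so leaving out 1 array kept the sign. The filters lost 0 calls, quantile normalization 3, the trend and robust fit 8, the replicate block 34, the fit over 15 arrays 41, and leaving out 1 array 7 (sham 0.5 hr replicate 1) to 84 (sham 0.5 hr replicate 3). Apart from the smaller number of arrays or the filter itself, the cause was not tested. Background correction and a slide block were not run, since scanner files were not used here. How much of the signal of dim probe sets, such as Ifit1 in unoperated liver, is background was not tested.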
